A study of Homo sapiens with 6 samples.

Results

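The genes described here are 10 of the 61487 gene IDs counted in K562 cells that were sensitive or resistant to azacitidine: LIN28A, LIN28B, IGF2BP1, IGF2BP2, IGF2BP3, HMGA1, HMGA2, DICER1, DIS3L2 and TUT4. They were chosen by name as regulators, processing enzymes and targets of let-7 microRNAs and as oncofetal RNA-binding proteins linked to the non-coding RNA H19. The rule uses no measured value, although the choice was made with earlier results of these data known. IGF2BP1 and DIS3L2 rose in the resistant cells, by 1.79-fold and 1.42-fold. The other 7 genes that could be tested passed no threshold, and HMGA2 was nearly absent from both groups.

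let-7 is a family of small RNAs that is scarce in embryonic cells and abundant in most differentiated ones, where it lowers its target mRNAs through a short seed sequence. LIN28A and LIN28B bind let-7 precursors and block their maturation, TUT4 adds a uridine tail to the LIN28-bound precursor, and DIS3L2 degrades the tailed RNA, whereas DICER1 cuts untouched precursors into mature let-7. HMGA2, LIN28B and the IGF2BP genes are well-known let-7 targets, so the axis contains a loop in which LIN28B protects its own mRNA. IGF2BP proteins bind mRNAs, many of them carrying m6A, and stabilise them; in blood formation LIN28B, IGF2BP1, IGF2BP3 and HMGA2 are known for the fetal programme.

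K562 is an established line from a chronic myeloid leukaemia, and the labels name its cell type as myeloblast. The study compared 3 libraries of sensitive K562 cells with 3 of azacitidine-resistant cells, which came from the same line after months of continuous exposure to rising concentrations of the drug, an inhibitor of DNA methylation. The resistant group is thus a population selected under drug from a single line, and clonal selection and drug exposure cannot be told apart in it. Both groups were grown in the same medium. The column names carry the tag NT, which the labels do not explain, and whether the resistant cells were still in drug at harvest is not given in the sources used here.

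The libraries held 33007642 to 43006918 counts, and a count of 0 allows 0.0733 to 0.0902 CPM (counts scaled to a common library total), taken as 3 counts of the TMM-scaled total and covering counting error only. All 12 erythroid markers of K562 were at 1 CPM or more in all 6 libraries, summing to 969 to 1850 CPM in sensitive and 1060 to 1770 CPM in resistant cells. Of the 5 pluripotent markers 0 reached 1 CPM in all 6 libraries, and they summed to 0.709 to 1.05 and 1.15 to 2.1 CPM. Other marker lists also differed without overlap between groups. The haematopoietic list (4 of 5 markers at 1 CPM or more in all 6 libraries) summed to 965 to 1260 CPM in sensitive and 402 to 411 CPM in resistant cells, and the lymphoid list (2 of 6, with MS4A1 at 0) to 24.5 to 103 and 9.91 to 11.7 CPM. The endothelial list (1 of 4) summed to 19 to 39.7 and 5.27 to 11.9 CPM, and the fibroblast list (0 of 6) to 1.25 to 3.46 and 4.8 to 7.97 CPM. Fibroblast markers did not all move together. With 1 library left out, the log2 fold change (resistant over sensitive) was 3.56 to 4.87 for COL1A2 and -3.88 to -2.45 for COL3A1. The part of these lists in the results below was not tested. Libraries numbered 3 stood apart from the others of their group along the second principal component (18% of the variance). LIN28B and IGF2BP3 were highest, and IGF2BP2, HMGA1 and TUT4 lowest, in the library numbered 3 of both groups. Of all tested genes, 22.8% were highest and 25% lowest there, so the pattern is not particular to these members.

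The mature sequences of let-7 are shown first because the seed they share defines the sites searched for below. RefSeq (GRCh38.p14) lists 12 let-7 family hairpins that give 9 different mature 5p sequences, and all 9 carry the seed GAGGUAG at bases 2 to 8, in capitals here (5′ to 3′). The 4 shown are let-7a, let-7b and let-7c, whose hosts MIRLET7BHG and MIR99AHG had the largest fold changes among the tested hosts, and miR-98, whose hairpin gene had the most counts.
hsa-let-7a-5p: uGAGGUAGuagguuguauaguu
hsa-let-7b-5p: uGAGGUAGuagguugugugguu
hsa-let-7c-5p: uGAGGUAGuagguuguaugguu
hsa-miR-98-5p: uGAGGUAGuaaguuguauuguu

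The reverse complement of that seed, CTACCTC, or with the A that lies opposite the first microRNA base, CTACCTCA, was searched for on the sense strand of the 3′ UTR of each member's principal GENCODE 29 transcript. The longer motif contains the shorter. Among 19086 coding genes, 3.27% held the 8-base match and 8.57% the 7-base match. IGF2BP1 held 3 of the 8-base matches in a UTR of 6206 bases, a number reached by 0.584% of the 685 UTRs of 0.8 to 1.2 times its length. LIN28B held 2 in 4549 bases, and 0.49% of 1225 UTRs of like length held as many. LIN28A, IGF2BP2, IGF2BP3 and HMGA2 held 1 each, HMGA1 held the 7-base match alone, and DICER1, DIS3L2 and TUT4 held neither. The 7-base match, counted with the longer ones, occurred 4 times each in IGF2BP1, LIN28B and HMGA2, whose UTR has 3003 bases. A match is a run of letters and was not measured as a site of binding. The 8-base sites of IGF2BP1 and LIN28B, which held the most of these, and those of IGF2BP3 and HMGA2 for comparison follow. They are on GRCh38, as read from the transcript strand with the match in capitals.
IGF2BP1, chr17:49051054-49051083, plus strand: gcaatgctgtgtgcgaagtaaaCTACCTCA
IGF2BP1, chr17:49053691-49053720, plus strand: tgggaaccagcagtgctagtaaCTACCTCA
IGF2BP1, chr17:49054345-49054374, plus strand: gctacgagtataaatggattaaCTACCTCA
LIN28B, chr6:105078805-105078834, plus strand: ttcctttacccggttgcaaagtCTACCTCA
LIN28B, chr6:105081414-105081443, plus strand: ttactctgtttacagcaaaaggCTACCTCA
IGF2BP3, chr7:23311795-23311824, minus strand: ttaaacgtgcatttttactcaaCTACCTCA
HMGA2, chr12:65963293-65963320, plus strand: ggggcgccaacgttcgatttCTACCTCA

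Of the 10 genes, 9 passed the filter on low counts and were tested. By edgeR's quasi-likelihood test with Benjamini-Hochberg adjustment over all 20891 genes, 2 of the 9 were called higher in resistant cells (adjusted p below 0.05), against 9.83% of all tested genes (2054). Of the 9, 0 were called lower, against 13.1% of all tested genes (2741); 0 were lower at an unadjusted p below 0.05, and 0 by DESeq2 or limma-voom. With 9 genes, counts of 2 and 0 cannot be set apart from those shares. In these bulk libraries, fewer cells carrying an RNA and less of it per cell cannot be told apart. The log2 fold change (resistant over sensitive) was positive for 8 of the 9, with a median of 0.19 against 0.03 over all tested genes, of which 51.6% were positive. In 4 of the 9, IGF2BP1, HMGA1, DICER1 and DIS3L2, every resistant library lay above every sensitive library, which 18.7% of all tested genes did. Of all calls, 42.8% were higher under the scaling used (TMM) and 58.9% when library totals alone were used, a scaling that moved the median of all genes to 0.20.

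**Figure D1:**
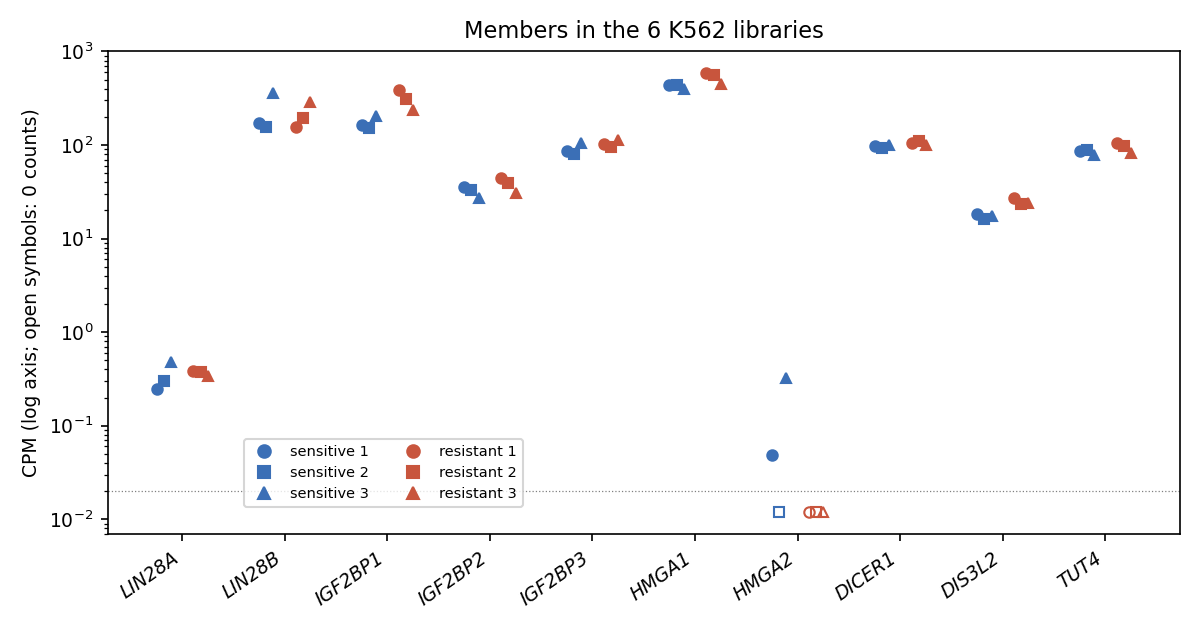
CPM of each gene on a log axis, with 1 symbol per library (blue sensitive, red resistant, shape by replicate number); open symbols below the dotted line are libraries with 0 counts. IGF2BP1, HMGA1, DICER1 and DIS3L2 do not overlap between groups, LIN28A stays below 1 CPM in all 6 libraries, and HMGA2 has counts in 2 sensitive libraries.

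**Figure D2:**
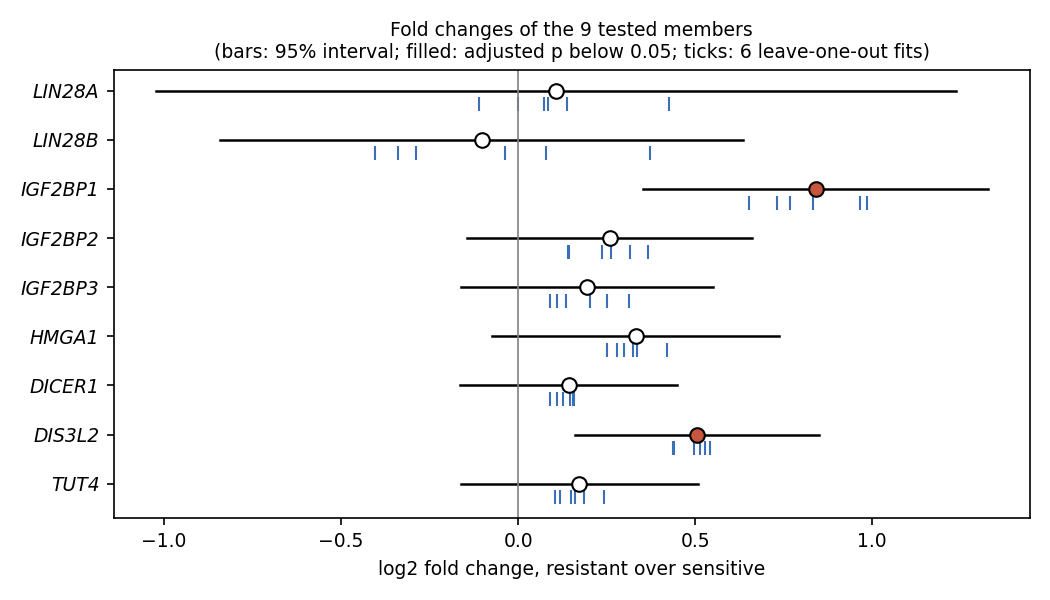
Log2 fold change of the 9 tested genes (resistant over sensitive) with 95% intervals as bars, and the 6 fits that each leave out 1 library as blue ticks. Filled points, IGF2BP1 and DIS3L2, have an adjusted p below 0.05, and the ticks of LIN28A and LIN28B fall on both sides of 0.

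Per kilobase of exon, the order of levels was the same in both groups. It ran from HMGA1 (182 ± 9.23 CPM per kb in sensitive cells, SD, n = 3) through LIN28B (38.0 ± 18.5), IGF2BP1 (19.1 ± 3.09), IGF2BP3 (10.7 ± 1.58), DICER1 (7.81 ± 0.281), IGF2BP2 (6.75 ± 0.888), TUT4 (5.21 ± 0.3) and DIS3L2 (1.54 ± 0.0938) to LIN28A (0.0854 ± 0.0310) and HMGA2. In sensitive cells no neighbours in this order overlapped between libraries, although DICER1, at 7.5 CPM per kb or more, and IGF2BP2, at 7.47 or less, nearly touched. In resistant cells LIN28B (26.1 to 47.8 CPM per kb) and IGF2BP1 (25.8 to 42.7) overlapped, as did DICER1 and IGF2BP2. The order rests in part on the length used: per kilobase of the longest transcript, IGF2BP3 (21.5 ± 3.16) and IGF2BP1 (21.1 ± 3.41) did not differ beyond their spread in sensitive cells. On that length TUT4 (14.4 ± 0.829 in sensitive and 16.2 ± 1.92 in resistant cells) lay above DICER1 (9.29 ± 0.334 and 10.3 ± 0.474) and IGF2BP2 (8.67 ± 1.14 and 10.4 ± 1.83) in both groups.

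Of the LIN28 paralogues, which keep let-7 from maturing, LIN28B (chr6:104936616-105083332, plus strand) was the abundant one, and it did not pass the test. It measured 172, 156 and 356 CPM in sensitive cells 1 to 3, and 157, 194 and 287 CPM in resistant cells 1 to 3. The groups overlapped throughout, and in each group the library numbered 3 was the highest, at 2.17 and 1.64 times the mean of the other libraries of its group. The means were 228 ± 111 and 212 ± 66.9 CPM (SD, n = 3), a log2 fold change of -0.10 with an SE of 0.33 and a 95% interval from -0.84 to 0.64 (adjusted p = 0.854). A rise of the size seen in IGF2BP1 lay outside that interval, but a 1.5-fold change in either direction lay within it. The sign rested on single libraries: without sensitive 3 it was 0.37, and without resistant 1 it was 0.077. Without both libraries numbered 3 it was 0.082 (adjusted p = 0.648).

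LIN28A (chr1:26410778-26429722, plus strand), the paralogue of pluripotent cells, had 10, 10 and 18 counts in sensitive and 14, 15 and 13 counts in resistant cells. Its means of 0.342 ± 0.124 and 0.369 ± 0.0245 CPM overlapped (log2 fold change 0.11, SE 0.51, adjusted p = 0.903). At this depth its interval ran from -1.02 to 1.24, so a change of up to about that size could not be seen.

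The IGF2BP genes encode 3 related RNA-binding proteins, and IGF2BP1 (chr17:48997412-49055650, plus strand) rose. It measured 162, 154 and 206 CPM in sensitive cells 1 to 3 and 389, 312 and 235 CPM in resistant cells 1 to 3. Every resistant library lay above every sensitive library, with the 2 libraries numbered 3 the closest to each other. The mean went from 174 ± 28.2 to 312 ± 77.4 CPM (SD, n = 3), a log2 fold change of 0.84 (SE 0.22, 95% interval 0.35 to 1.33, adjusted p = 0.0209 by edgeR's quasi-likelihood test). It stood at rank 3332 of 20891 by p-value. The call was lost without sensitive 1 (0.77, adjusted p = 0.101), sensitive 2 (0.73, 0.103), resistant 1 (0.65, 0.0657) or resistant 2 (0.83, 0.0819), and held without either library numbered 3. Without both of those it was 1.13 (adjusted p = 3.88e-06).

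IGF2BP3 (chr7:23310209-23470467, minus strand), the paralogue with 1 of the matches printed above, measured 86.2, 81.0 and 106 CPM in sensitive and 104, 96.2 and 113 CPM in resistant cells. The groups overlapped, with sensitive 3 above resistant 1 and 2, and the library numbered 3 was again the highest of each group. The means were 91.2 ± 13.4 and 104 ± 8.54 CPM (log2 fold change 0.19, SE 0.16, adjusted p = 0.420). Its exons overlap those of MALSU1 on the opposite strand (3451 and 4239 counts over the groups), and the strand setting of the counting is not given in the sources used here.

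IGF2BP2 (chr3:185643739-185825056, minus strand), the paralogue that stays on in many adult tissues, measured 35.4, 33.2 and 27.3 CPM in sensitive and 44.4, 39.3 and 31.0 CPM in resistant cells. The libraries numbered 3 were the lowest of both groups, and the groups overlapped. Its log2 fold change was 0.26 (SE 0.18, 95% interval -0.14 to 0.66, adjusted p = 0.338).

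Within the family, IGF2BP1 made up 50.3%, 50.6% and 55.4% of the summed CPM per kb of exon in sensitive cells and 66.5%, 63.6% and 56.5% in resistant cells. The shares did not overlap between groups, although sensitive 3 and resistant 3 were close. The mean share went from 52.1 ± 2.86% to 62.2 ± 5.15% (SD, n = 3; exact permutation test, two-sided, p = 0.1, the smallest that 3 against 3 libraries can give). The share of IGF2BP3 was 29.2 ± 1.17% and 23.0 ± 5.40% (exact permutation p = 0.3), and that of IGF2BP2 18.7 ± 4.02% and 14.8 ± 0.548% (exact permutation p = 0.4). Adjusted over the 3 shares, the permutation p-values were 0.3 for IGF2BP1, 0.4 for IGF2BP2 and 0.4 for IGF2BP3. Per kilobase of the longest transcript IGF2BP1 held 41.0 ± 2.16% and 51.4 ± 6%, and again its libraries did not overlap between groups.

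**Figure D3:**
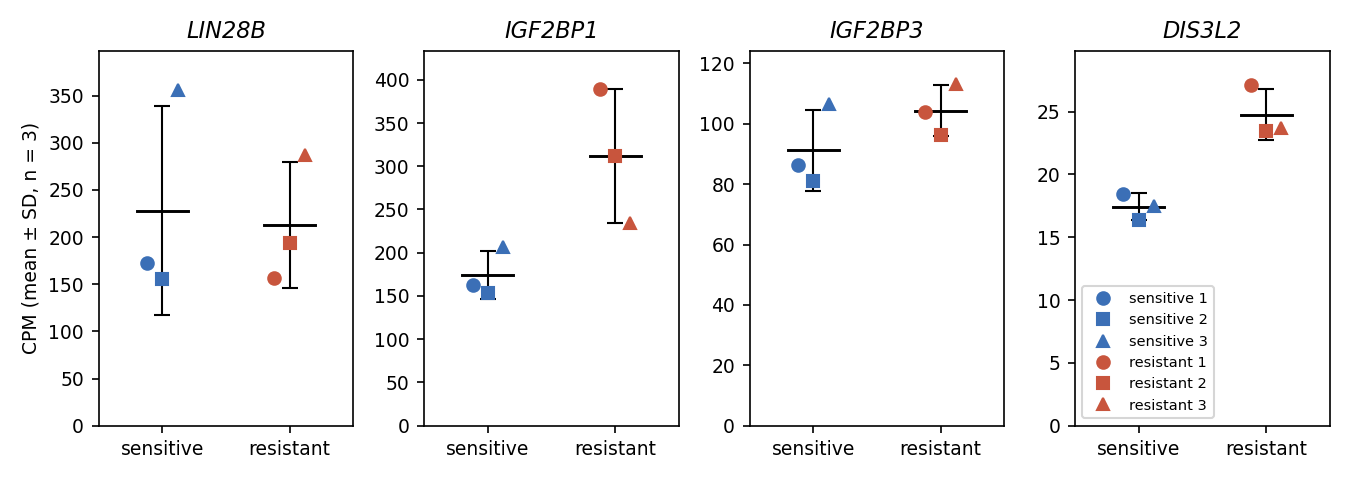
CPM of LIN28B, IGF2BP1, IGF2BP3 and DIS3L2 by group on linear axes from 0, with 1 symbol per library, the mean as a long bar and ± SD as an error bar (n = 3). IGF2BP1 and DIS3L2 do not overlap between groups, LIN28B does, and the libraries numbered 3 (triangles) are the highest of both groups for LIN28B and IGF2BP3.

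HMGA1 and HMGA2 are architectural proteins that bend AT-rich DNA, and HMGA2 is the classic let-7 target. HMGA2 (chr12:65824131-65966295, plus strand) had 2, 0 and 12 counts in sensitive cells 1 to 3 and 0 in every resistant library, too few to test. Against 3 counts over the resistant group it was at least 4.77-fold lower there, but 12 of its 14 counts came from sensitive 3, and without that library both groups were at or below 3 counts. HMGA1 (chr6:34236873-34246231, plus strand), which holds the 7-base match alone, measured 438, 433 and 399 CPM in sensitive and 593, 556 and 449 CPM in resistant cells. Its groups did not overlap, and resistant 3 was the nearest to the sensitive cells. The means of 423 ± 21.5 and 533 ± 74.8 CPM gave a log2 fold change of 0.33 (SE 0.18, 95% interval -0.07 to 0.74, adjusted p = 0.223), which passed the threshold only without both libraries numbered 3 (0.39, adjusted p = 0.0309).

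Among the enzymes that act on let-7 precursors, DIS3L2 (chr2:231961245-232344350, plus strand), the exonuclease that removes tailed pre-let-7, rose. It measured 18.5, 16.4 and 17.5 CPM in sensitive and 27.1, 23.4 and 23.7 CPM in resistant cells, and the groups lay clear of each other. The mean went from 17.4 ± 1.06 to 24.8 ± 2.04 CPM (SD, n = 3), a log2 fold change of 0.51 (SE 0.15, 95% interval 0.16 to 0.85, adjusted p = 0.0399). The call sat close to the threshold. It held without resistant 3 (adjusted p = 0.0359) and was lost without sensitive 1 (0.116), sensitive 2 (0.179), sensitive 3 (0.0660), resistant 1 (0.119) or resistant 2 (0.119), with the log2 fold change between 0.44 and 0.54. It was also lost with no filter on low counts (adjusted p = 0.107) and with offsets for gene length and GC content (0.0584). Without both libraries numbered 3 the log2 fold change was 0.52 (adjusted p = 0.00776).

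TUT4 (chr1:52408282-52553487, minus strand), the uridine transferase that LIN28 recruits, measured 85.3, 88.7 and 79.1 CPM in sensitive and 105, 98.0 and 82.7 CPM in resistant cells. The groups overlapped through resistant 3, the lowest of its group (log2 fold change 0.17, SE 0.15, adjusted p = 0.447). DICER1 (chr14:95086228-95158010, minus strand) measured 96.6, 92.2 and 99.1 CPM in sensitive and 106, 111 and 101 CPM in resistant cells. Its groups did not overlap, yet they lay close (96.0 ± 3.46 and 106 ± 4.90 CPM), and the log2 fold change of 0.14 (SE 0.14, 95% interval -0.16 to 0.45, adjusted p = 0.495) did not pass. A 1.5-fold change of DICER1, either way, lay outside its interval. The antisense gene DICER1-AS1, which shares exonic bases with it, had 151 and 131 counts over the groups.

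The genes whose levels followed IGF2BP1 most closely over the 6 libraries, by Euclidean distance between centred log2 CPM, were FAM120C (0.119), AKT1S1 (0.158) and TLK1 (0.17). TLK1 measured 49.6, 49.7 and 73.2 CPM in sensitive and 124, 106 and 76.5 CPM in resistant cells. Its likeness to IGF2BP1, also in the libraries numbered 3, follows from how it was picked. Nearest to DIS3L2 were KDM3B (0.0905), CUL3 (0.0988) and RABGEF1 (0.099). CUL3 measured 57.9, 51.9 and 56.4 CPM in sensitive and 89.5, 79.1 and 74.2 CPM in resistant cells. These are descriptions of likeness over 6 libraries, with no test.

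Mature let-7 was not measured, since libraries of total RNA fragments do not capture it. The 12 hairpin genes had 55 counts in all, 28 in sensitive and 27 in resistant cells, with 39 of the 55 at MIR98 and 0 in any library for 7 of the hairpins. The longer transcripts that contain hairpins were measured. Of 21 such genes and hairpins listed, 7 were tested, 3 were called higher and 1 lower, with a median log2 fold change of 0.67. Over all tested genes, 9.83% were called higher and 13.1% lower. With 1 library left out, 1 to 4 were higher and 0 to 1 lower.

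MIRLET7BHG (chr22:46053869-46113928, plus strand), the long non-coding host of let-7a-3 and let-7b, rose the most of these. It had 37, 34 and 29 counts in sensitive and 289, 228 and 237 counts in resistant cells, with every resistant library far above the sensitive ones. The mean went from 0.901 ± 0.123 to 6.65 ± 1.19 CPM, a 7.36-fold rise (log2 fold change 2.88, SE 0.28, adjusted p = 8.78e-05), and the call held in all 6 fits that left out 1 library. Its exons overlap PRR34-AS1 on the same strand and PRR34 on the opposite strand, each with 0 counts in sensitive and 5 in resistant cells. WDR82 (chr3:52254421-52288020, minus strand), a chromatin protein gene with let-7g in it, measured 53.4 ± 3.87 CPM in sensitive and 85.0 ± 1.53 CPM in resistant cells, higher by 0.67 on the log2 scale (SE 0.14, adjusted p = 0.00628). That call was lost without sensitive 2 (adjusted p = 0.0587) or resistant 2 (0.0507).

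HUWE1 (chrX:53532096-53686729, minus strand), the ubiquitin ligase gene that contains let-7f-2 and miR-98, measured 245 ± 6.93 CPM in sensitive and 423 ± 100.5 CPM in resistant cells, higher by 0.79 on the log2 scale (SE 0.20, adjusted p = 0.0197). Without sensitive 1 or 2 or resistant 1 or 2 its adjusted p was 0.0603 to 0.09. MIR99AHG (chr21:15928296-16645065, plus strand), the host of let-7c, had 19, 12 and 27 counts in sensitive and 4, 4 and 0 counts in resistant cells. It fell by 2.82 on the log2 scale (SE 0.80, adjusted p = 0.0291), a call that remained only without resistant 3 and was otherwise at an adjusted p of 0.0541 to 0.0974. The called hosts did not all move in 1 direction. MIRLET7IHG (0.68, adjusted p = 0.136), SPACA6, which contains let-7e (-0.43, 0.325), and MIRLET7A1HG, beside let-7a-1 and let-7f-1 (-0.06, 0.879), passed no threshold.

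**Figure D4:**
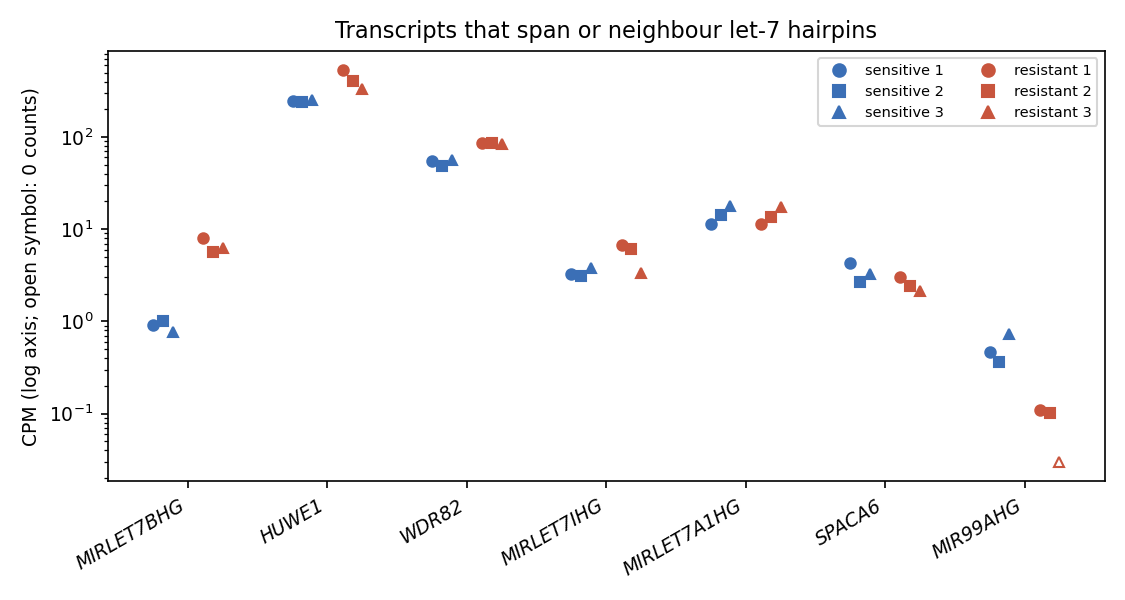
CPM on a log axis of transcripts that contain or adjoin let-7 hairpins, with 1 symbol per library (blue sensitive, red resistant, shape by replicate number; the open symbol is a library with 0 counts). MIRLET7BHG, HUWE1 and WDR82 are higher in all 3 resistant libraries, MIR99AHG is lower in all 3, and the other transcripts overlap between groups.

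Other regulators of let-7 maturation were read from a list of 15 genes. Of the 14 tested, 6 were called higher and 2 lower (median log2 fold change 0.42), beside 9.83% and 13.1% of all tested genes. With 1 library left out, 1 to 6 were higher and 0 to 3 lower. TRIM71 (chr3:32818018-32897826, plus strand), a ubiquitin ligase of early development and itself a let-7 target with 4 of the 8-base matches, had 204, 178 and 105 counts in sensitive and 461, 513 and 267 counts in resistant cells. Its mean went from 4.38 ± 1.37 to 10.9 ± 3.37 CPM, higher by 1.31 on the log2 scale (SE 0.32, adjusted p = 0.0153), a call lost without resistant 2 (0.0693). KHSRP, which promotes let-7 processing and so acts against LIN28, rose from 92.5 ± 6.61 to 167 ± 34.7 CPM (log2 fold change 0.86, adjusted p = 0.00760; 6 of 6 fits). MSI2, an RNA-binding protein, rose too (0.72, adjusted p = 0.0109), and it lost the call without sensitive 1, sensitive 2 or resistant 2, at adjusted p-values of 0.0623 to 0.0738. The 2 called lower, named after their values were seen, were HNRNPA1 (-0.77, adjusted p = 0.0356) and TUT7 (-0.43, 0.0406). With 1 library left out, both calls remained only without resistant 3. Calls on this list thus ran in both directions.

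Of 17 genes of the microRNA machinery, all tested, 4 were called higher and 0 lower by edgeR (median log2 fold change 0.42). The shares over all tested genes were 9.83% higher and 13.1% lower. With 1 library left out, 1 to 8 were higher. The count of lower genes was also 0 at an unadjusted p below 0.05 and by DESeq2 and limma-voom. AGO1, an Argonaute that holds mature microRNAs, rose by 1.24 on the log2 scale, from 95.7 ± 6.28 to 226 ± 35.8 CPM (SE 0.17, adjusted p = 7.46e-04; 6 of 6 fits). AGO2, the slicing Argonaute (0.76, adjusted p = 0.0378), TNRC6A, its silencing partner (0.61, 0.0371), and DGCR8, the partner of DROSHA (0.57, 0.0277), also passed. These 3 each lost the call without sensitive 1 or 2 or resistant 1 or 2, and AGO2 and TNRC6A also without sensitive 3, at adjusted p-values of 0.0773 to 0.13 for AGO2, 0.0529 to 0.144 for TNRC6A and 0.075 to 0.149 for DGCR8.

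The enzymes related to TUT4 and DIS3L2, 24 genes that tail or trim RNA, gave 6 higher, 2 lower and a median of 0.02. Of all tested genes, 9.83% were called higher and 13.1% lower. With 1 library left out, 3 to 6 of the enzymes were higher and 0 to 5 lower. TENT5C, a poly(A) polymerase, rose by 2.55 on the log2 scale, from 5.94 ± 1.57 to 34.7 ± 5.60 CPM (SE 0.23, adjusted p = 5.56e-05). The exosome subunit EXOSC6 (0.93, adjusted p = 0.00158), the poly(A) polymerase TENT4B (0.95, 0.00434) and DIS3L, the cytoplasmic exosome nuclease closest in kind to DIS3L2 (0.70, 0.00917), rose as well. All but DIS3L held in 6 of 6 fits, and DIS3L was lost without sensitive 1, sensitive 2 or resistant 2 (0.0593 to 0.0705). TUT7, the partner of TUT4 in tailing pre-let-7, named here after its value was seen, was among the 2 called lower (log2 fold change -0.43, adjusted p = 0.0406; at 0.0706 to 0.19 in the 5 fits that lost it, all but the fit without resistant 3). The exosome subunit EXOSC1, also named after its value was seen, was the other (-0.80, adjusted p = 0.0102). With 1 library left out, EXOSC1 lost the call only without resistant 2 (0.0728).

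Of 46 known let-7 targets outside the 10 genes, 39 were tested, 9 were called higher and 4 lower (median log2 fold change 0.11). Among all tested genes the shares were 9.83% higher and 13.1% lower. With 1 library left out, 3 to 11 targets were higher and 4 to 7 lower. Calls of large fold ran in both directions. IGF1R, the IGF1 receptor, rose by 3.25 on the log2 scale, from 4.09 ± 1.98 to 38.8 ± 11 CPM (SE 0.36, adjusted p = 2.03e-04) and PBX3, a homeodomain partner of HOX proteins, from 1.00 ± 0.574 to 8.19 ± 1.94 CPM (3.03, adjusted p = 0.00101). CCND1, cyclin D1, fell by 4.40 on the log2 scale, from 35.2 ± 4.48 to 1.67 ± 0.606 CPM (adjusted p = 7.42e-06), and the chaperone gene DNAJC1 fell by 0.85 (adjusted p = 0.00293). The other 2 called lower, named after their values were seen, were the death receptor gene FAS, which fell by 4.05 (adjusted p = 0.00633; 35, 37 and 14 counts against 2, 0 and 3), and THBS1, a matrix glycoprotein gene, which fell by 2.27 (adjusted p = 0.00355). These 6 calls held in 6 of 6 fits. In the 3′ UTRs of their principal transcripts, CCND1, DNAJC1 and THBS1 held neither let-7 match. IGF1R and FAS held 1 of the 8-base matches each, and PBX3 the 7-base match alone.

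Across all tested coding genes, the share called higher was 11.4% of 12909 genes with no 8-base let-7 match and 14.5% of 488 genes with 1, and the share called lower 15.5% and 12.7%. Genes with matches have longer 3′ UTRs (median 2889.5 against 988 bases). Within UTRs of 4000 to 8000 bases, 18.8% of 1040 genes without a match and 21% of 138 with a match were higher, at a median log2 fold change of 0.08 and 0.21. From 2000 to 4000 bases the shares were 13.1% and 13.9%, from 1000 to 2000 bases 10.7% and 12.4%, and from 500 to 1000 bases 10.6% and 4%. In the same order, the medians were 0.033 and 0.021, -0.024 and -0.097, and -0.047 and -0.054. Genes with a match thus had the higher median in the longest band alone. The share called lower was smaller with a match in each band. It was 15% and 12.3% in the longest band, then 15% and 13.9%, 16.6% and 13.3%, and 14.9% and 10%. The gap in the share called higher ran 1 way in the 3 longer bands and the other way in the shortest. That band had 50 genes with a match, and the gaps were not tested.

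Partners of the IGF2BP proteins and the m6A machinery, 21 genes, gave 5 higher and 0 lower (median 0.33), beside 9.83% and 13.1% of all tested genes. With 1 library left out, 3 to 7 were higher and 0 to 1 lower. The count of lower genes was also 0 at an unadjusted p below 0.05 and by DESeq2 or limma-voom. YTHDF1, an m6A reader, rose by 1.49 on the log2 scale, from 18.7 ± 2.37 to 52.6 ± 7.60 CPM (SE 0.17, adjusted p = 2.61e-04) and STAU1, a double-stranded RNA-binding protein, from 53.9 ± 4.67 to 115 ± 8.47 CPM (1.10, adjusted p = 5.92e-04). ELAVL1, the mRNA-stabilising protein HuR (0.79, adjusted p = 0.00495), held in 6 of 6 fits as YTHDF1 and STAU1 did. SYNCRIP, also on the let-7 list (0.80, 0.0165), was lost without sensitive 1, sensitive 2 or resistant 2 (0.0769 to 0.101).

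Of the transcripts known to be bound by IGF2BP proteins, 21 were tested, 5 were called higher and 5 lower, with a median of 0.03 beside 0.03 over all tested genes, of which 9.83% were called higher and 13.1% lower (2 to 6 higher and 4 to 8 lower with 1 library left out). H19, the imprinted RNA that binds both let-7 and IGF2BP1, had 1443, 1251 and 986 counts in sensitive and 28611, 33350 and 32571 counts in resistant cells (log2 fold change 4.65, SE 0.22, adjusted p = 1.37e-06). Its longest GENCODE 29 transcript, of 2348 bases, holds 0 of the 7-base or 8-base matches to the let-7 seed. IGF2, its imprinted neighbour and the mRNA for which the IGF2BP family is named, had 2 counts, both in resistant 1, and was not tested. CD44, a hyaluronan receptor stabilised by IGF2BP proteins, fell by 5.09 on the log2 scale, from 85.4 ± 4.93 to 2.51 ± 1.12 CPM (adjusted p = 5.22e-06). BCL2, the survival factor, fell by 3.76 (adjusted p = 2.84e-06) and LAMB2, a laminin chain, by 1.35 (adjusted p = 0.00205), all 3 in 6 of 6 fits.

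Genes of the fetal and adult blood programme that LIN28B is known to influence, 8 tested of 10, gave 2 higher and 0 lower (median -0.29). The shares over all tested genes were 9.83% higher and 13.1% lower. With 1 library left out, 1 to 2 were higher and 0 to 2 lower. The count of lower genes was 2 at an unadjusted p below 0.05 and by DESeq2, and 0 by limma-voom. PLAG1, a fetal transcription factor, rose from 19 ± 2.09 to 33.4 ± 2.40 CPM (log2 fold change 0.81, adjusted p = 0.00472; 6 of 6 fits). The fetal globin gene HBG1 measured 86.5, 58.1 and 101 CPM in sensitive and 35.3, 35.1 and 123 CPM in resistant cells (log2 fold change -0.35, adjusted p = 0.620). As in LIN28B, the libraries numbered 3 were the highest of both groups. HBG1 and its near-identical copy HBG2 are uncertain in the counts. The adult globin gene HBB had 0, 5 and 4 counts in sensitive and 18, 15 and 42 counts in resistant cells (adjusted p = 0.0332), and its call was lost in each of the 6 fits that left out 1 library (0.0519 to 0.0885).

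**Figure D5:**
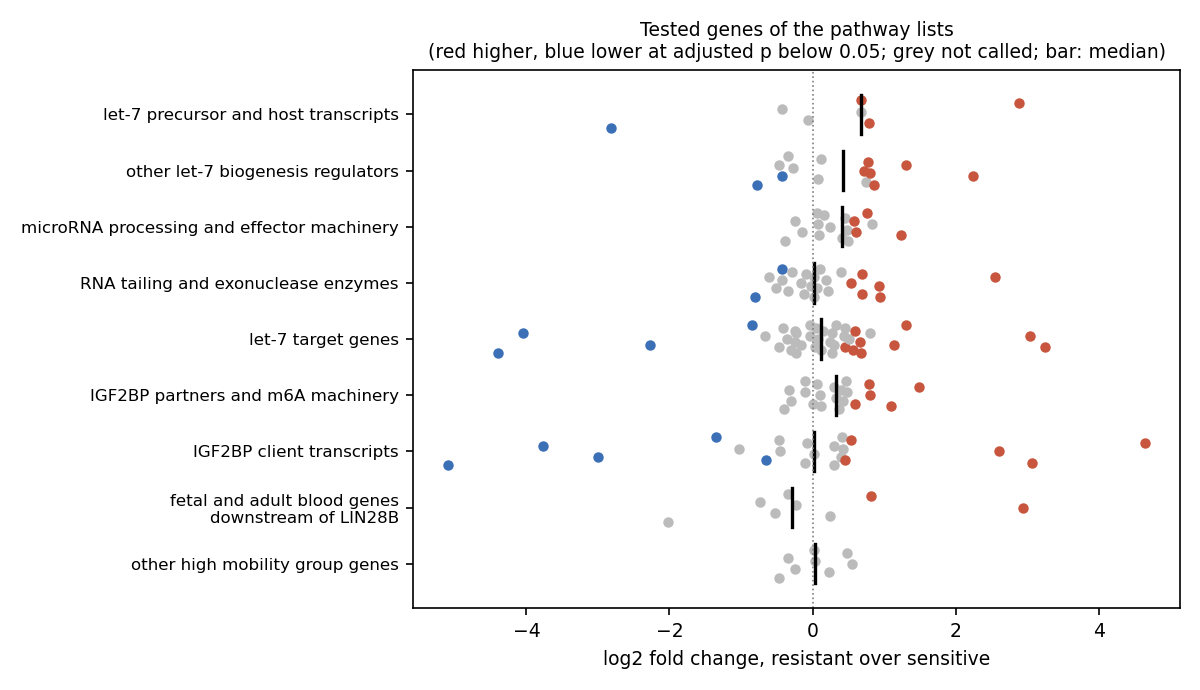
Log2 fold change (resistant over sensitive) of every tested gene in the 9 lists around the 10 genes; red is called higher, blue called lower and grey not called at an adjusted p of 0.05, and the black bar is the list's median. Each list holds called and uncalled genes except the other high mobility group genes, where 0 of 8 were called, and the medians lie between -0.29 and 0.67.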

How the data were processed

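RNA was measured in 3 sensitive and 3 resistant K562 libraries, made from ribosome-depleted total RNA per the labels' protocols. The authors deposited raw counts per Ensembl gene. Reads had passed through Subread 2.0.3 with featureCounts, HISAT2 2.2.1 and Trimmomatic 0.39 (GRCh38), per the submitters' processing notes, which give tools but no order. Annotation release and strand setting were not stated. Symbols matched 61369 of 61487 IDs, and GENCODE 29 positions 58312.

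Counts were filtered (filterByExpr), scaled by TMM factors and tested with edgeR 4.0.16 in R 4.3.3 (robust quasi-likelihood, two-sided, Benjamini-Hochberg over all 20891 genes). CPM use TMM-scaled totals. SEs come from the F statistic. Whether replicates came from separate cultures is not described, and p-values cover only the spread among these 6 libraries, which may be technical. DESeq2 1.42.0, limma 3.58.1, other filters, scalings and left-out libraries were alternatives. The test was tried on simulated data. Members and lists were chosen with earlier results of these data known. All 10 members, H19, IGF2, up to 4 called genes per list with the smallest adjusted p, and the 3 nearest patterns of each called member were named by rule; other names were chosen after their values were seen. A gene that this rule names is not reported here.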

Additional observations from a re-analysis of the deposited data

How the results depend on the processing

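The number of the 10 genes called higher was 2, and it was 0 at an adjusted p below 0.01, 1 with no filter on low counts, 1 with length and GC offsets (an alternative chosen after seeing the data), 3 without both libraries numbered 3, and 0 to 2 when 1 library was left out. It was 2 with DESeq2 size factors, library totals, at least 50 counts in 3 libraries, a replicate block, DESeq2 and limma-voom, and 0 were called lower under every alternative run. Over the 15 alternatives read at an adjusted p of 0.05, IGF2BP1 kept its call in 11 (log2 fold change 0.65 to 1.13) and DIS3L2 in 8 (0.44 to 0.68). Neither passed 0.01 in the main edgeR fit. With all 6 libraries, IGF2BP1 was below 0.01 in edgeR with library totals (0.00625) or no filter (0.00147), and by DESeq2 (0.00157). DIS3L2 was not below 0.01 in those fits (0.0167, 0.107 and 0.0156). LIN28B changed sign with library totals (0.092), length and GC offsets (0.073) and without both libraries numbered 3 (0.082), and with 1 library left out it ran from -0.40 (without resistant 3) to 0.37 (without sensitive 3), also above 0 without resistant 1 (0.077). LIN28A ran from -0.11 (without sensitive 1) through -0.0012 (without sensitive 2) to 0.43 (without sensitive 3). The cause was not tested.

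Over all genes, 938 were called higher and 1586 lower at an adjusted p below 0.01, 4645 and 5021 without both libraries numbered 3, and 1051 to 3327 and 1677 to 3718 when 1 library was left out. Replicate numbers name no batch, and the main fit did not pair the samples by them. Deviations of same-numbered libraries correlated at 0.202, 0.085 and 0.299, all above 0, and other pairs ran from -0.312 to 0.23. The libraries numbered 3 correlated most. Of tested genes, 22.8% were highest and 25% lowest in the library numbered 3 of both groups. Whether these libraries share an effect was not tested. Sensitive 2 correlated best with resistant 1 (0.23), not with its own number. A replicate block gave 2859 higher and 3582 lower. In the 9 lists, 99 of 288 counts under alternatives moved beyond 1.5 times. At 3 libraries per group, small differences may pass unseen, so members without a call are not shown to be unchanged.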

Other observations

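Of the 8 other high mobility group genes, relatives of HMGA1 and HMGA2 in name, 0 were called higher or lower by edgeR. The shares over all tested genes were 9.83% higher and 13.1% lower. At an unadjusted p below 0.05, 0 of the 8 were lower. HMGB2, a chromatin protein of dividing cells, measured 456, 369 and 618 CPM in sensitive and 262, 319 and 464 CPM in resistant cells (log2 fold change -0.47, adjusted p = 0.237 by edgeR's quasi-likelihood test), with the libraries numbered 3 the highest of both groups. TDGF1, a marker of pluripotent cells like LIN28A, had 0 counts in the sensitive libraries and 20, 30 and 10 counts in the resistant ones, at least 19.6-fold higher against 3 counts over the sensitive group. STARD13, listed as a let-7 target although its 3′ UTR held neither match, had 10, 11 and 18 counts in sensitive cells. It had 0 in the resistant ones, at least 13.3-fold lower. These 3 genes were chosen after their values were seen.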
